A study of Mus musculus with 4 samples.

Results

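The genes described here are the sensors of foreign or double-stranded RNA, the proteins that relay their signal, and the effectors that interferon induces, 50 genes taken by symbol. Of these, 49 were measured by a probe set (the group of probes that reads 1 gene) whose only gene symbol was that gene, out of 22180 genes measured in this way. Tmem173 carries its current symbol Sting1 in the platform annotation and was matched through RefSeq, while the 1 probe set of Irf5 also names Tnpo3 and was left out. Expression was read in the line Beta-TC-6, mouse insulin-producing cells that descend from tumours driven by SV40 large T antigen under an insulin promoter, on Affymetrix Mouse Gene 2.1 ST arrays. The siNF90 group held 2 arrays of cells transfected with a mixture of siRNA duplexes against NF90, and the siNTC group 2 arrays of cells transfected with a negative control siRNA. Both groups therefore received duplex RNA and a lipid reagent, and untransfected cells were not analysed here. NF90 is a protein that binds double-stranded RNA. The level of its own transcript was not analysed here, and the siNF90 group is named by its label alone. Whether a group's arrays stem from different cultures is not stated, so each p-value reflects the spread between arrays, possibly a technical one. With 2 arrays a group, their number limits the precision.

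Cells recognise viral RNA through the helicases RIG-I and MDA5 in the cytosol and Toll-like receptor 3 in endosomes. The helicases signal through the mitochondrial adaptor MAVS and the kinase TBK1 to IRF3 and IRF7, which switch on interferon beta. Interferon then acts through its receptor, STAT proteins and IRF9 on a DNA element, the interferon-stimulated response element (ISRE), and so raises a large set of effector genes, among them most of the sensors themselves. A strong response of this kind shows as a joint rise of Isg15, the Ifit and Oas families, Mx1, Rsad2 and Cxcl10. In beta cells the pathway is known from viral infection and from type 1 diabetes.

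The siNF90 arrays showed no such joint rise. The arrays read bulk RNA, in which fewer cells expressing a gene and less of its RNA per cell cannot be told apart. All values are the authors' deposited values on the log2 scale, and differences are siNF90 minus siNTC. Over the 49 genes the median difference was 0.015, equal to the median of 0.015 over all genes, with 27 genes above 0 and 22 below. Of all genes, 11893 lay above 0 and 10286 below. The median size of a difference, its sign left aside, was 0.09 for the 49 genes and 0.13 for all genes. None of the 49 passed limma's test at an adjusted p under 0.05 (Benjamini-Hochberg adjustment across the whole table; adjusted p between 0.357 and 0.992), and neither did any other gene (0% of 22180). With a prior for the variance that was let vary with expression level, which called 101 genes (0.455% of all), the count among the 49 was again 0. At an unadjusted p under 0.05 there were 2 higher (4.08%, against 5.87% of all genes) and 1 lower (2.04%, against 4.41%). That count of 3 was 7 without the first siNF90 array and 2 without either siNTC array.

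The 3 genes with an unadjusted limma p under 0.05 were Ifih1 and Ifi35, with both siNF90 arrays above both siNTC arrays, and Herc6, with both below. In each direction their share was below that of all genes. Groups did not overlap in 16 of the 49 genes, and in 39.8% of all genes. The siNF90 pair was the higher one in 7 of them, 14.3%, against 21.9% of all genes, and the lower one in 9, 18.4%, against 17.9%. Among the 26 genes above the median level of all genes it was the higher one in 3 (11.5%, against 26.2% of all genes at such levels). It was the lower one in 5 (19.2%, against 21.7%). In 37 of the 49 genes (75.5%) the gap between the 2 arrays of one group was larger than the difference between the groups, as it was in 70.2% of all genes. The median over the 49 genes was 1.96 and 1.95 on the siNF90 arrays and 1.83 and 1.88 on the siNTC arrays. The median difference depended on single arrays: it was -0.04 without the first siNF90 array, 0.04 without the second, and -0.02 without either siNTC array.

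**Figure D1:**
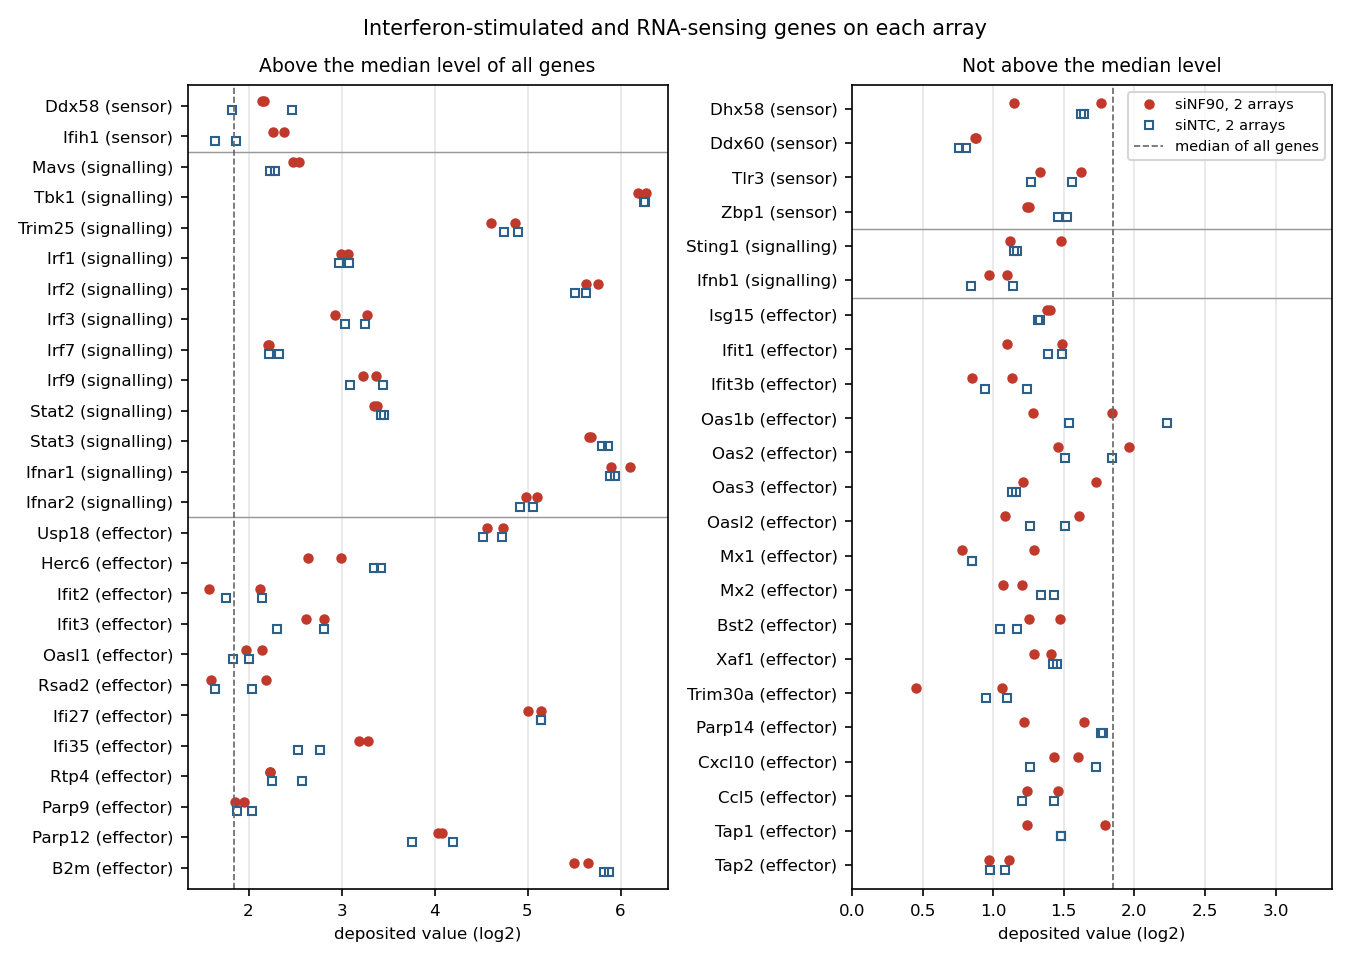
Deposited log2 values of the 49 genes on each array, with siNF90 arrays as filled red circles and siNTC arrays as open blue squares, in genes above (left) and not above (right) the median level of all genes, drawn as a dashed line. Within each panel the genes run from sensors through signalling to effectors. Ifih1 and Ifi35 have both siNF90 arrays to the right of both siNTC arrays, and Herc6 has them to the left.

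The level of each gene was set against the median over all genes, 1.845. The table holds no measure of background, and probe sets differ in how brightly they read the same amount of RNA, so this split describes the arrays and does not show that a transcript is present or absent. Of the 49 genes, 26 lay above the median: 2 of 6 sensors, 12 of 14 signalling genes and 12 of 29 effectors. The signalling genes not above it were Ifnb1 and Sting1. Closest above the median was Rsad2, with a mean over the 4 arrays of 1.87, and closest below it Oas1b at 1.72. Near the low end of an array a value hardly follows its transcript, so for the 23 genes not above the median only differences are given, with no fold. Ifih1 and Rsad2 count as above the median although their siNTC means, 1.755 and 1.84, lay below it. No fold is given for them either.

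Beta cell markers checked the labelled cell type, and all 9 measured, Ins2 and Pdx1 among them, lay above the median level. They did not hold one level between the groups: Slc2a2, the glucose transporter GLUT2, read 4.78 and 4.86 on siNF90 arrays and 6 and 5.8 on siNTC arrays. Its difference of -1.08 ± 0.13 missed limma's test (adjusted p = 0.342) and passed with the prior that follows the level (adjusted p = 0.0153). Nkx6-1 differed by 0.45 and Mafa by 0.38, both factors of beta cell identity, with both siNF90 arrays above both siNTC arrays and neither passing. Of 5 measured markers of other islet endocrine cells, 4 also lay above the median, among them Gcg, the glucagon gene, at 8.88 and 8.78 on siNF90 arrays and 8.5 and 8.75 on siNTC arrays. Of 6 stromal and endothelial markers only Vim did, at 3.42 and 2.93 on siNF90 arrays and 2.66 and 2.46 on siNTC arrays (limma, adjusted p = 0.417), and of 4 exocrine and duct markers 0 did. Of 8 measured markers of macrophages and blood cells, only Cd68 did. Their summed level was 12.11 to 13.08 on siNF90 arrays and 10.46 to 11.37 on siNTC arrays. Without Cd68, which read 4.44 and 4.48 on siNF90 arrays against 3.32 and 3.35 on siNTC arrays, the sums overlapped, at 7.63 to 8.64 on siNF90 arrays and 7.14 to 8.02 on siNTC arrays. Cd68 also passed only with the prior that follows the level (adjusted p = 0.0217). The part of Cd68, Vim and Slc2a2 in any result below was not tested. The leucocyte marker Ptprc read 1.12 and 1.1 on siNF90 arrays and 0.92 and 1.33 on siNTC arrays. No listed marker of this kind was at 0.

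Among the sensors, MDA5 was the one that differed most. Ifih1, which encodes MDA5, the sensor of long double-stranded RNA, read 2.26 and 2.38 on siNF90 arrays and 1.87 and 1.64 on siNTC arrays. The siNF90 pair was higher without overlap, and the first siNTC array lay close to the median level and the second below it. The siNTC mean, 1.755, lay below the median level of 1.845. Ifih1 thus counts as above that level only through the siNF90 arrays, and no fold is given. The difference was 0.57 ± 0.14 (log2, SE, with a 95% interval of 0.23 to 0.90) and did not pass limma's test (adjusted p = 0.364). It lay between 0.45 and 0.68 when each array in turn was left out.

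RIG-I did not show this pattern. Ddx58, which encodes RIG-I, the sensor of short RNA with a triphosphate end, read 2.17 and 2.15 on siNF90 arrays and 1.82 and 2.47 on siNTC arrays. The siNF90 arrays lay between the siNTC arrays, so the difference of 0.015 ± 0.22 (log2, SE) is within the spread of the control group (limma, adjusted p = 0.988). Its 95% interval runs from -0.53 to 0.56, and it was -0.31 without the first siNTC array and 0.34 without the second. The difference between Ifih1 and Ddx58 themselves was not tested.

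The other 4 sensors lay below the median level. Tlr3, the endosomal receptor of double-stranded RNA, read 1.33 and 1.62 on siNF90 arrays and 1.27 and 1.56 on siNTC arrays, and the groups overlapped (difference 0.06 ± 0.17, limma adjusted p = 0.941). Dhx58 encodes LGP2, the third helicase of the RIG-I family, and differed by -0.17 ± 0.21, with the siNF90 arrays apart from each other at 1.76 and 1.15. Ddx60, a helicase reported to assist RIG-I, differed by 0.09 ± 0.12. Zbp1, which binds nucleic acids in the Z form and can start necroptosis, read 1.24 and 1.25 on siNF90 arrays and 1.46 and 1.52 on siNTC arrays, a difference of -0.24 ± 0.12 that also did not pass (limma, adjusted p = 0.541).

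**Figure D2:**
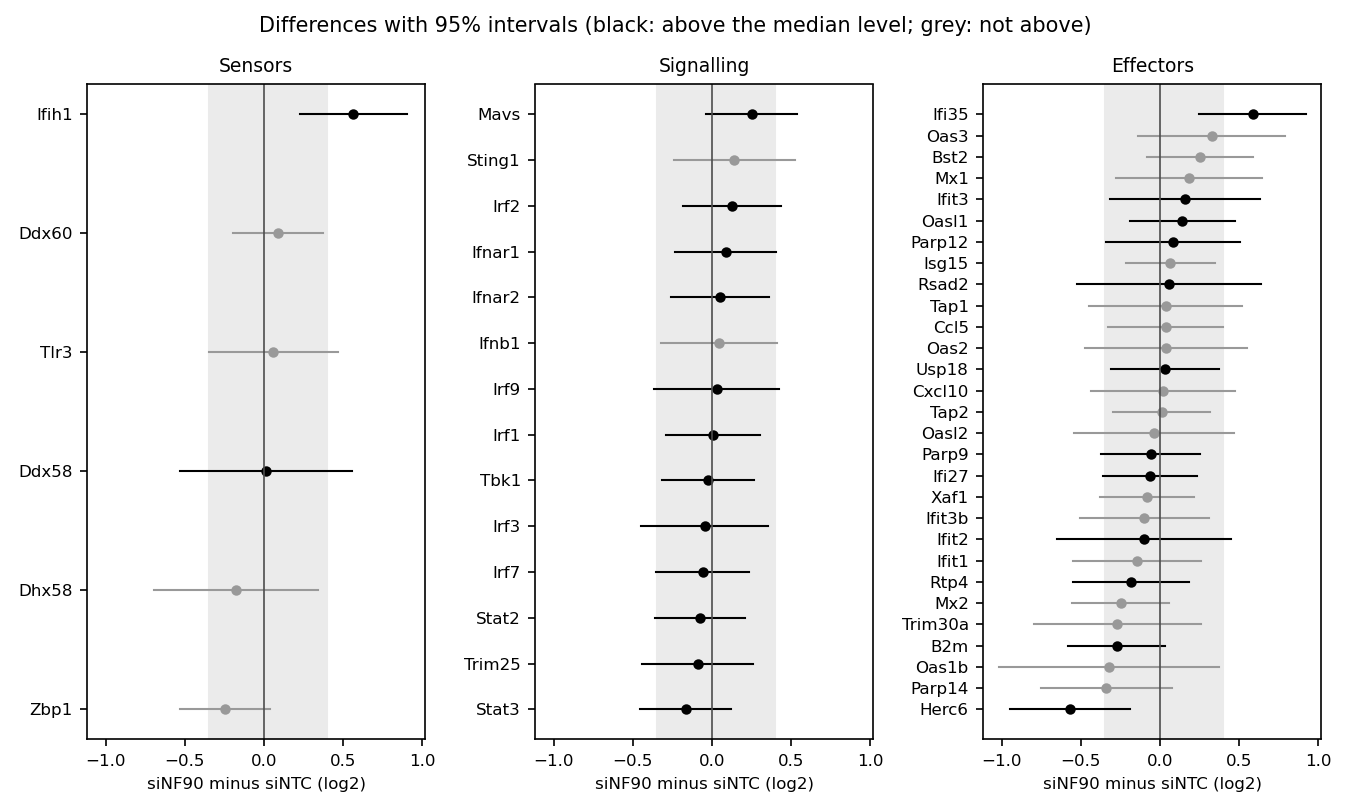
Difference between groups (siNF90 minus siNTC, log2) of each gene with its 95% interval from limma, in sensors, signalling genes and effectors; black marks genes above the median level and grey the others. The shaded band holds the differences of all genes from the 5th percentile (-0.35) to the 95th (0.395). The intervals of Ifih1, Ifi35 and Herc6 leave out 0, which equals an unadjusted limma p under 0.05. Of all genes, 5.87% had such a p with a difference above 0 and 4.41% with one below 0. Every upper bound of the genes shown lies below 1.

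The relay from the sensors to interferon differed little. Mavs, the adaptor on the mitochondrial membrane that both RIG-I and MDA5 use, read 2.48 and 2.54 on siNF90 arrays and 2.29 and 2.23 on siNTC arrays. Both siNF90 arrays were above both siNTC arrays, by 0.25 ± 0.12 (log2, SE), without passing limma's test (adjusted p = 0.537). Tbk1, the kinase that phosphorylates IRF3, read 6.19 and 6.27 on siNF90 arrays and 6.26 and 6.25 on siNTC arrays. Trim25, a ubiquitin ligase that acts on RIG-I, differed by -0.09 ± 0.14 and Sting1, the adaptor of the DNA-sensing pathway, by 0.14 ± 0.16, and both groups overlapped.

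The 5 measured IRF transcription factors of the list had overlapping groups. Irf8, among the other pathway genes and below the median level, did not overlap, at 1.41 and 1.51 on siNF90 arrays and 1.35 and 1.29 on siNTC arrays (limma, adjusted p = 0.748). Irf3, the factor activated by TBK1, read 2.93 and 3.27 on siNF90 arrays and 3.04 and 3.25 on siNTC arrays (difference -0.045 ± 0.16, limma adjusted p = 0.954). Its sign turned under quantile normalization and when single arrays were left out. Irf7, which interferon itself induces and which amplifies the response, differed by -0.06 ± 0.12, and Irf9, the DNA-binding part of the complex formed with the STATs, by 0.03 ± 0.16. Irf1, an activator, differed by 0.005 ± 0.12. Irf2, which opposes Irf1 at the same sites, read 5.63 and 5.76 on siNF90 arrays and 5.51 and 5.63 on siNTC arrays, a difference of 0.12 ± 0.13 (limma, adjusted p = 0.787).

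Both STAT genes lay slightly lower in siNF90. Stat3, activated mainly by cytokines of the interleukin-6 family, read 5.68 and 5.66 on siNF90 arrays and 5.87 and 5.8 on siNTC arrays, a difference of -0.17 ± 0.12 (limma, adjusted p = 0.688). Stat2, which carries the type I interferon signal, read 3.38 and 3.35 on siNF90 arrays and 3.42 and 3.46 on siNTC arrays, a difference of -0.075 ± 0.12 (limma, adjusted p = 0.873). In both genes the groups did not overlap, as in 39.8% of all genes.

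Interferon beta and its receptor did not separate the groups. Ifnb1 read 1.1 and 0.97 on siNF90 arrays and 0.84 and 1.14 on siNTC arrays (difference 0.045 ± 0.15, limma adjusted p = 0.949). The siNF90 arrays lay between the siNTC arrays, all of them near the lower quartile of an array, which was 1.06 to 1.1. Ifnar1, a chain of the type I interferon receptor, read 5.9 and 6.1 on siNF90 arrays and 5.89 and 5.94 on siNTC arrays, and the groups overlapped (limma, adjusted p = 0.870). Ifnar2, the other chain, differed by 0.05 ± 0.13.

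The promoters of these genes were read for the element that interferon uses. The letters of the ISRE (GAAA, any 2 bases, then GAAA) were searched on both strands of RefSeq promoter windows that run from 250 bases before to 50 after a gene's start (GRCm38.p6). They occurred in 16 of 40 windows of the listed genes (15 of 36 genes with a window, Irf5 included), which is 40% of their windows, and in 3.44% of all 32851 windows. The share in windows of other genes of the pathway, described below, was 17.9%. The list is largely of genes known to respond to interferon, so a high share follows in part from that choice. The letters of the GAS element (TTC, any 3 bases, then GAA), which serves STAT dimers, occurred in 17.5% of the windows of the listed genes and in 8.3% of all windows. In windows of the other pathway genes the GAS share was 22.4%. Matches may overlap each other, as they do in Isg15 and Bst2. A match describes the letters and is not a bound site. Upstream stretches of 5 genes are shown in lower case with the ISRE letters in capitals, as examples of such matches. B2m, Irf2, Ifit3 and Stat2 are the named genes with a match before the start and the smallest p, and Isg15 was added after its values were seen because its matches overlap in a run.
B2m (chr2:122147503-122147602, plus strand): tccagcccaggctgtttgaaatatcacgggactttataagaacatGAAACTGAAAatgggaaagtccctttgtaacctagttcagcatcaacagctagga
Irf2 (chr8:46739495-46739558, plus strand): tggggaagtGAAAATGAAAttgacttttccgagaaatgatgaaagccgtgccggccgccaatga
Ifit3 (chr19:34583362-34583461, plus strand): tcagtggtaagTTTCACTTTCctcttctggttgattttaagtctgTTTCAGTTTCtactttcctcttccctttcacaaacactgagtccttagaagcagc
Stat2 (chr10:128270248-128270330, plus strand): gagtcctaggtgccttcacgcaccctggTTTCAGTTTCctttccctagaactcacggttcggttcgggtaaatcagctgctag
Isg15 (chr4:156200830-156200929, minus strand): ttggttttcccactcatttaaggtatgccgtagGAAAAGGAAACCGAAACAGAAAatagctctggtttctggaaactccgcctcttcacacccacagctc

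Genes with these letters did not share a direction. Of the 15, 10 lay above 0 and 5 below, with a median difference of 0.055, and of the 20 measured genes with a window but no match, 11 lay above and 9 below, with a median of 0.0175. Of all 22180 genes, 11893 lay above 0 and 10286 below. In Isg15, 3 overlapping matches began 78, 72 and 66 bases before the start, and its difference was 0.065. In Ifih1 the match lay past the start, and in B2m, with the lowest difference of the 15, it began 139 bases before the start. Ifi35 and Herc6 had no match in this window, which says only that these letters are not there.

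**Figure D3:**
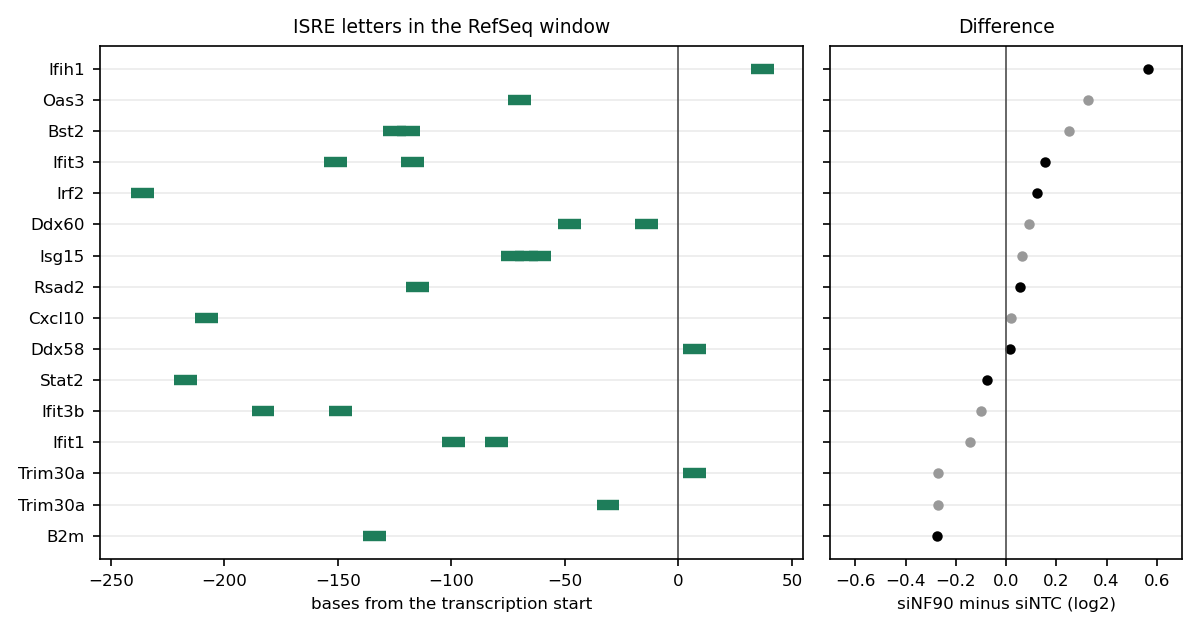
Positions of the ISRE letters in the promoter windows (left; bases from the transcription start, each match drawn to scale) and the difference between groups (right; siNF90 minus siNTC, log2; black above the median level, grey not above), with 1 row for each window and genes in order of difference. Trim30a has 2 windows. Matches stand in genes on both sides of 0, from Ifih1 at 0.57 to B2m at -0.27.

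The ISG15 system gave the lowest difference of all 49 genes. Herc6, the main ligase that attaches ISG15 to proteins in mice, read 2.99 and 2.64 on siNF90 arrays and 3.35 and 3.42 on siNTC arrays. Both siNF90 arrays were lower than both siNTC arrays, and the siNF90 arrays lay farther apart than the siNTC arrays. The difference was -0.57 ± 0.15 (log2, SE, with a 95% interval of -0.95 to -0.19), 1.48-fold lower, and did not pass limma's test (adjusted p = 0.403). Leaving out the first siNF90 array gave -0.74, and leaving out the second gave -0.40.

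Its substrate and the opposing enzyme did not follow Herc6. Isg15, the ubiquitin-like modifier and one of the most inducible interferon targets, read 1.38 and 1.4 on siNF90 arrays and 1.32 and 1.33 on siNTC arrays. The groups did not overlap, but the difference was 0.065 ± 0.12 with an interval of -0.22 to 0.35 (limma, adjusted p = 0.896), at a level below the median. Usp18, which removes ISG15 and restrains the interferon receptor, read 4.74 and 4.56 on siNF90 arrays and 4.72 and 4.52 on siNTC arrays, with overlapping groups (difference 0.03 ± 0.14).

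Ifi35 had the highest difference. The protein it encodes is induced by interferon and binds its relative Nmi. Its brighter probe set read 3.28 and 3.19 on siNF90 arrays and 2.53 and 2.77 on siNTC arrays, so the siNF90 pair was higher without overlap. The difference was 0.59 ± 0.14 (log2, SE; 95% interval 0.25 to 0.92), 1.5-fold, and did not pass limma's test (adjusted p = 0.357). A second probe set of Ifi35 lay below the median level, at 1.2 and 1.27 on siNF90 arrays and 1.18 and 0.81 on siNTC arrays, and differed by 0.24 ± 0.17 (limma over all probe sets, adjusted p = 0.763). Nmi differed by 0.14 ± 0.13, with overlapping groups.

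In the Ifit and Oas families 1 gene of 9, Oas3, had groups that did not overlap, against 39.8% of all genes. In the Ifit family, whose proteins recognise the ends of foreign RNA, all 4 genes had overlapping groups and 3 of 4 differences were below 0. Ifit3 read 2.81 and 2.62 on siNF90 arrays and 2.81 and 2.31 on siNTC arrays, a difference of 0.15 ± 0.19 that was -0.095 without the second siNTC array (limma, adjusted p = 0.835). Ifit3 and Ifit3b are near-identical copies that the probes may not tell apart. Ifit1 differed by -0.14 ± 0.16, Ifit2 by -0.1 ± 0.22 and Ifit3b by -0.1 ± 0.17.

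The Oas enzymes make the second messenger that activates RNase L when they meet double-stranded RNA. Only Oasl1, a relative without that activity, lay above the median level, at 1.97 and 2.14 on siNF90 arrays and 1.83 and 2 on siNTC arrays (difference 0.14 ± 0.13, limma adjusted p = 0.778). Oas3 read 1.21 and 1.73 on siNF90 arrays and 1.13 and 1.16 on siNTC arrays, higher without overlap and below the median level, and most of its difference of 0.33 came from the second siNF90 array and was 0.065 without it. Oas1b, an inactive member known in mice for resistance to flaviviruses, had the widest spread within a group, 1.54 and 2.23 on siNTC arrays, against 1.84 and 1.28 on siNF90 arrays. Its difference was -0.33 ± 0.28. Oas2 and Oasl2 differed by 0.035 ± 0.21 and -0.04 ± 0.21.

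The remaining antiviral effectors lay on both sides of 0. Mx1, a GTPase against influenza viruses that is disrupted in many inbred mouse strains, differed by 0.18 ± 0.19 and Mx2 by -0.25 ± 0.12. Rsad2 (viperin), which makes a chain terminator of viral RNA, differed by 0.055 ± 0.24, with siNF90 arrays at 1.6 and 2.19 and siNTC arrays at 2.04 and 1.64. Bst2 (tetherin), which holds budding virus at the membrane, differed by 0.25 ± 0.14. Trim30a, a mouse member of the TRIM family, differed by -0.27 ± 0.22. Of these 5, Mx2 and Bst2 had groups that did not overlap, as in 39.8% of all genes, and both lay below the median level.

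Rtp4, an interferon-induced transporter-like protein, read 2.23 on both siNF90 arrays and 2.25 and 2.58 on siNTC arrays. Its groups did not overlap, but the difference of -0.18 ± 0.15 came from the second siNTC array and was -0.02 without it (limma, adjusted p = 0.731). Xaf1, a promoter of apoptosis, differed by -0.085 ± 0.12. Ifi27, a mitochondrial protein, read 5.14 and 5.01 on siNF90 arrays and 5.14 on both siNTC arrays. Among the ADP-ribosyltransferases, Parp9 differed by -0.06 ± 0.13 and Parp12 by 0.08 ± 0.17. Parp14 read 1.64 and 1.22 on siNF90 arrays and 1.78 and 1.76 on siNTC arrays, lower on both but below the median level (difference -0.34 ± 0.17, limma adjusted p = 0.554).

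Chemokines and the peptide transporter lay below the median level in both groups. Cxcl10, which draws T cells into inflamed islets, read 1.6 and 1.43 on siNF90 arrays and 1.73 and 1.26 on siNTC arrays, and Ccl5 1.46 and 1.24 on siNF90 arrays and 1.43 and 1.2 on siNTC arrays. Both siNF90 values lay inside the siNTC range for Cxcl10, and the groups overlapped for Ccl5. Tap1 and Tap2, which carry peptides to class I molecules, differed by 0.035 ± 0.20 and 0.01 ± 0.13.

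B2m, the light chain of class I molecules, was the gene of this group above the median level, and it read lower in siNF90, at 5.65 and 5.5 on siNF90 arrays and 5.88 and 5.82 on siNTC arrays. The siNF90 pair was lower without overlap. The difference was -0.27 ± 0.12 (log2, SE; 95% interval -0.58 to 0.03), 1.21-fold lower, and did not pass limma's test (adjusted p = 0.523). H2-K1, a class I heavy chain, differed by -0.005 ± 0.13, with overlapping groups. Tapbp (tapasin), which loads class I molecules, read 4.98 and 4.95 on siNF90 arrays and 4.78 and 4.72 on siNTC arrays. Its siNF90 pair was higher without overlap, as in 21.9% of all genes (difference 0.21 ± 0.12, limma adjusted p = 0.591). Psmb8 and Psmb9, subunits of the immunoproteasome, differed by -0.23 ± 0.28 and -0.02 ± 0.12, with overlapping groups.

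The size of change that these arrays allow can be read from the intervals. Across the 49 genes the highest upper bound of a 95% interval was 0.92 (log2), and all 49 lay below 1, a doubling. The lowest lower bound was -1.02, that of Oas1b, and the other 48 lay above -1. These bounds are for each gene alone, without adjustment over genes, and at levels below the median they bound the deposited value and not the transcript.

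**Figure D4:**
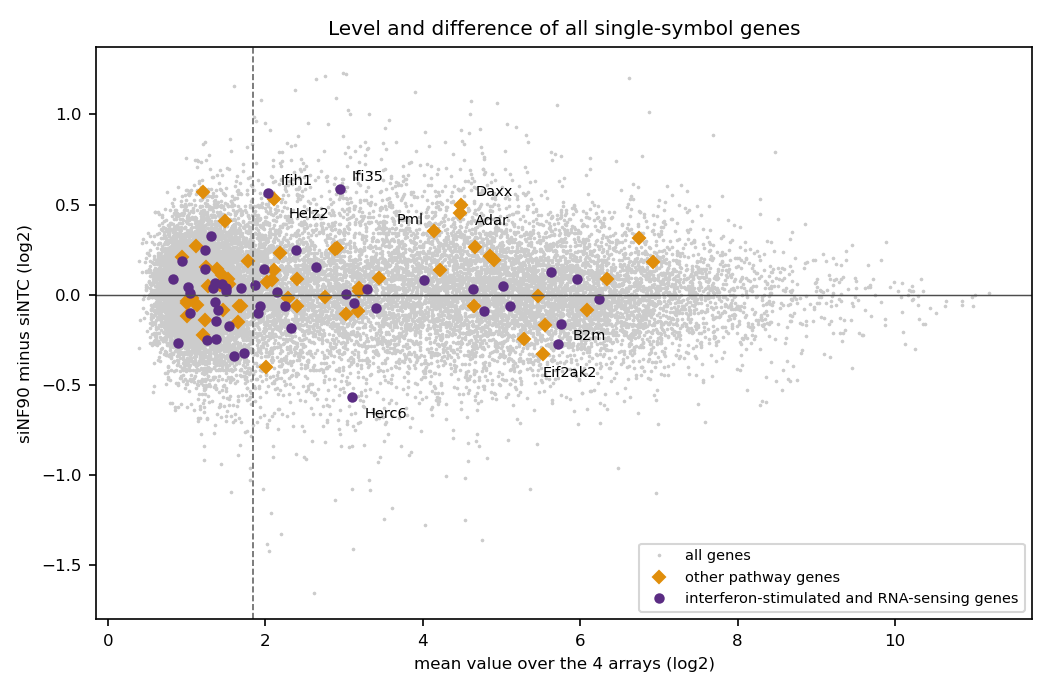
Difference between groups (siNF90 minus siNTC, log2) against the mean value over the 4 arrays (log2) for all 22180 genes (grey), the 49 genes (purple circles) and 56 other genes of the pathway (orange diamonds). The dashed line is the median level of 1.845. The 49 genes lie between -0.57 (Herc6) and 0.59 (Ifi35), and all genes between -1.655 and 1.23.

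Other genes of the interferon pathway, a list of 66 written from general knowledge, were compared in the same way. Of these, 56 were measured. None passed limma's test (adjusted p from 0.357 to 0.992). Their median difference was 0.065, with 33 above 0 and 23 below, against 0.015 for all genes, with 11893 above 0 and 10286 below. The siNF90 pair was higher without overlap in 15 of the 56 (26.8%, against 21.9% of all genes) and lower without overlap in 6 (10.7%, against 17.9%). At an unadjusted p under 0.05 there were 6 higher (10.7%, against 5.87% of all genes) and 1 lower (1.79%, against 4.41%).

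A pair of enzymes that meet double-stranded RNA differed in opposite directions. Adar, which edits adenosine in double-stranded RNA and so hides a cell's own transcripts from MDA5, read 4.83 and 4.58 on siNF90 arrays and 4.22 and 4.28 on siNTC arrays. The siNF90 pair was higher without overlap (difference 0.46 ± 0.14, 1.37-fold, limma adjusted p = 0.414). Eif2ak2 encodes PKR, the kinase that stops translation when it binds double-stranded RNA and that is known to phosphorylate NF90. It read 5.3 and 5.42 on siNF90 arrays and 5.69 on both siNTC arrays, lower on both siNF90 arrays (difference -0.33 ± 0.12, 1.26-fold, limma adjusted p = 0.455).

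Daxx and Pml, proteins that meet in nuclear bodies and that interferon can induce, were both higher on both siNF90 arrays. Daxx read 4.73 on both siNF90 arrays and 4.2 and 4.26 on siNTC arrays (difference 0.5 ± 0.12, 1.41-fold, limma adjusted p = 0.357). Pml read 4.29 and 4.35 on siNF90 arrays and 3.88 and 4.05 on siNTC arrays (difference 0.35 ± 0.13, 1.28-fold, limma adjusted p = 0.448). Helz2, a helicase and nuclear receptor coactivator, read 2.63 and 2.12 on siNF90 arrays and 1.8 and 1.89 on siNTC arrays, with most of its difference of 0.53 ± 0.19 on the first siNF90 array (limma, adjusted p = 0.450). The siNTC mean of Helz2, 1.845, stood at the median level and not above it. Ilf2, which encodes the partner of NF90, read 6.21 and 6.11 on siNF90 arrays and 6.52 and 6.36 on siNTC arrays (difference -0.28 ± 0.13, limma adjusted p = 0.527). Of the 6 higher pathway genes, 2 lay below the median level and are named after their values were seen. Ifitm2, which belongs to a family that hinders the entry of viruses, read 1.39 and 1.6 on siNF90 arrays and 0.94 and 0.91 on siNTC arrays (difference 0.57 ± 0.13, limma adjusted p = 0.357). Rnf135 (Riplet), a ubiquitin ligase that acts on RIG-I, read 1.83 and 1.55 on siNF90 arrays and 1.34 and 1.22 on siNTC arrays (difference 0.41 ± 0.15, limma adjusted p = 0.446). Each of these genes, from Adar to Rnf135, had groups that did not overlap, as in 39.8% of all genes. All of them but Ilf2 are among the pathway genes with the smallest p, so this largely follows from how they were picked. None of these genes passed the test with the prior that follows the level either.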

How the data were processed

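The authors deposited 1 table of log2 values for 41345 probe sets on 4 arrays. Per the submitters' processing notes, Transcriptome Analysis Console was used, and the sources used here do not state its version, background correction or normalization. The log base is not stated and was taken as 2 because array maxima, 11.86 to 12.01, exceed the natural logarithm of a scanner's highest value. Array medians were 1.65 to 1.68.

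Gene symbols came from the platform annotation: 23521 carried 1 gene symbol, 1814 several and 16010 none here. For the 1082 genes with more than 1 such probe set, the one with the highest mean was used. All 22180 genes were fitted with limma 3.58.1 (R 4.3.3; lmFit and eBayes without a trend), with two-sided p and Benjamini-Hochberg adjustment over all genes at 0.05. The fit had 2 residual and 3.92 prior degrees of freedom. With 2 arrays in each group the smallest p of an exact permutation test is 0.333, so none was used. Intervals of a difference cover 95%.

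The members, lists and roles were chosen with earlier results of these data known. By rule, the text gives full values for the 12 genes above the median level with the smallest p, for 9 genes always given, for the 5 other pathway genes above that level with the smallest p (Adar and Eif2ak2, always given, are among them), and for Ilf2; other values given per array were chosen after they were seen. In simulated data with 200 changed genes among 22180, over 10 draws, the fit called 0% of genes shifted by 0.5 (log2), 21.2% of those shifted by 1 and 95% of those shifted by 2. Refits left out single arrays, averaged the probe sets of a gene, dropped genes below the median level, centred or quantile-normalized the arrays, gave eBayes a robust or level-dependent prior, or blocked on replicate number. Figures were drawn with matplotlib 3.10.9.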

Additional observations from a re-analysis of the deposited data

How the results depend on the processing

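No alternative brought any of the 49 genes, or of the other pathway genes, past an adjusted p of 0.05 in limma. Over all genes the count of 0 became 101 with a trend in the prior and 321 when the trend was joined to a filter at the median level, a setting chosen after seeing the data; the cause was not tested. With the replicate number as a block the count over all genes was 0 and 3 of the 49 had an unadjusted p under 0.05. The labels do not say that a number marks a shared culture, and same-numbered arrays did not deviate together (correlation across genes -0.02). Groups did not overlap in 8 of the 26 genes left by the filter on level (47.9% of all genes at such levels), which leaves fewer genes. Leaving out each array in turn gave 2 to 7 genes at an unadjusted p under 0.05 and a median difference of -0.04 to 0.04. Between 25 and 28 genes lay above the median level under the settings tried. A shorter form of the ISRE letters, without the last base, matched 16 genes in place of 15. Of 270 values of 23 named genes under alternatives, 260 kept their sign and their side of the threshold. The others turned sign: Irf3 was 0.011 with quantile normalization, and with single arrays left out the values ran from -0.215 to 0.125 for Irf3, -0.31 to 0.34 for Ddx58, -0.085 to 0.205 for Tlr3, -0.105 to 0.195 for Ifnb1, -0.095 to 0.405 for Ifit3 and -0.015 to 0.185 for Ifnar1. A left-out array leaves a lone array in its group, taken to vary like the others. Without a measure of background, the 23 genes not above the median level cannot be called detected or undetected.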
